A study of Mus musculus with 8 samples.

Results

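Cluster 0 is 1 of the 12 groups of cells that the authors drew from their single-cell RNA profiles of cultured mouse fat precursors. It was taken as all entries of the authors' cluster marker table with the cluster number 0, which gave 694 genes of the 3904 in the table, in 694 of its 13337 entries. Each entry holds a log2 fold change of cluster 0 against all other cells together, the percentage of cluster 0 cells in which the gene was detected and the same percentage in all other cells. The working name of the cluster rests on Thbs1, Tagln and Itgb1 and calls its cells contractile and preadipocyte-like.

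The cells came from inguinal white adipose tissue of wild-type (WT) C57BL/6 mice and of mice that lack both HMGN1 and HMGN2 (DKO), nucleosome-binding proteins, all 8 to 12 weeks old. They were profiled as preadipocytes at day 0 and at day 6 of browning, the conversion of white fat cells into heat-producing ones, with 2 cultures for each genotype and day. Day 6 cultures had 4 days in a differentiation medium with insulin, dexamethasone, IBMX, T3 and rosiglitazone, followed by insulin and T3. The 8 samples thus form 4 groups (WT day 0, DKO day 0, WT day 6 and DKO day 6), but every deposited value is computed over the cells of all of them. No value has a replicate or an error, the table does not divide cluster 0 by genotype or day, and it holds neither the depth nor the cell numbers reached. The study numbers its clusters differently from the table, and no match between these numbers was assumed. The clusters were drawn from these same genes, so the values are a description with no test. A gene is called higher or lower here by size alone, at a log2 fold change of 0.25 or more in either direction, which is also the limit of the table. A gene with no entry passed no such limit and is not a gene at 0.

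Preadipocytes are fibroblast-like precursors that hold bundles of actin and myosin (stress fibres) while they spread on a surface, and lose them as they round up and fill with lipid. Actin polymerization frees the coactivator MRTF, which acts with the serum response factor SRF on genes of the actin cytoskeleton through a DNA element called the CArG box. Tension on the same fibres brings YAP and TAZ into the nucleus, where they act with TEAD proteins on genes such as Ccn1 and Ccn2. Thrombospondin 1, the product of Thbs1, is a secreted matrix protein that can activate latent TGF-beta.

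The promoters of 3 contractile genes that were higher in cluster 0 are shown because each holds a CArG box, in capitals, before the annotated start of its gene. Actg1 encodes cytoplasmic gamma actin, Cnn2 the actin-binding calponin 2 and Myl9 a regulatory light chain of non-sarcomeric myosin. The sequences are from RefSeq (GRCm38.p6, the build the authors call mm10), read 5′ to 3′ on the strand of the gene, and end where the annotated gene begins. The Actg1 stretch is chr11:120348543-120348745 on the minus strand, that of Cnn2 is chr10:79988350-79988583 on the plus strand and that of Myl9 is chr2:156775214-156775419 on the plus strand.
Actg1: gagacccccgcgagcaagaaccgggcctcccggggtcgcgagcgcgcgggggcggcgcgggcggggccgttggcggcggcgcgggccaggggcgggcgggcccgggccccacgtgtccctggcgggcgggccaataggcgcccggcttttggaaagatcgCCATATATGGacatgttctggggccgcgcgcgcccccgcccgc
Cnn2: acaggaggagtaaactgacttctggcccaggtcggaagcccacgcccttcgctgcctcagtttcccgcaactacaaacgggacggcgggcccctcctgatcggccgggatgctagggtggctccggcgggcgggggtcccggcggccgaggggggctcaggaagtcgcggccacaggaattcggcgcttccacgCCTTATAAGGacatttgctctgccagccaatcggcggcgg
Myl9: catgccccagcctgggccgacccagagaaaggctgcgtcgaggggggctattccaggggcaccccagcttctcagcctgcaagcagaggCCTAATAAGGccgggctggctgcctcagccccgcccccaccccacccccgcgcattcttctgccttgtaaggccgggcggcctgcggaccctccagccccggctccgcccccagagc
The first base of the box lies 90 bases before the RefSeq start in Actg1, 56 in Cnn2 and 161 in Myl9. These distances do not run to the ends of the printed stretches. The stretches stop where the GENCODE gene begins, which is upstream of the RefSeq start. The log2 fold changes in cluster 0 were 0.97 for Actg1, 0.99 for Cnn2 and 1.16 for Myl9.

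Of the 3904 genes, 486 were higher in cluster 0 (12.4% of the genes in the table) and 208 were lower (5.33%). The median log2 fold change was 0.37 over the higher genes and -0.52 over the lower ones, so the lower side held fewer genes and larger differences. At a minimum of 0.5 the counts were 128 higher (3.28%) and 112 lower genes (2.87%), and at a minimum of 1 they were 11 and 32. Every one of the 486 higher genes was detected in a larger percentage of cells in cluster 0 than elsewhere, with medians of 86.1% and 62.1%. Of the 208 lower genes, 149 were detected in fewer cells of cluster 0, and 59 were detected in as many cells or more while their mean level was lower. The number of transcripts captured per cell is not in the table, and its part in these percentages was not tested.

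**Figure D1:**
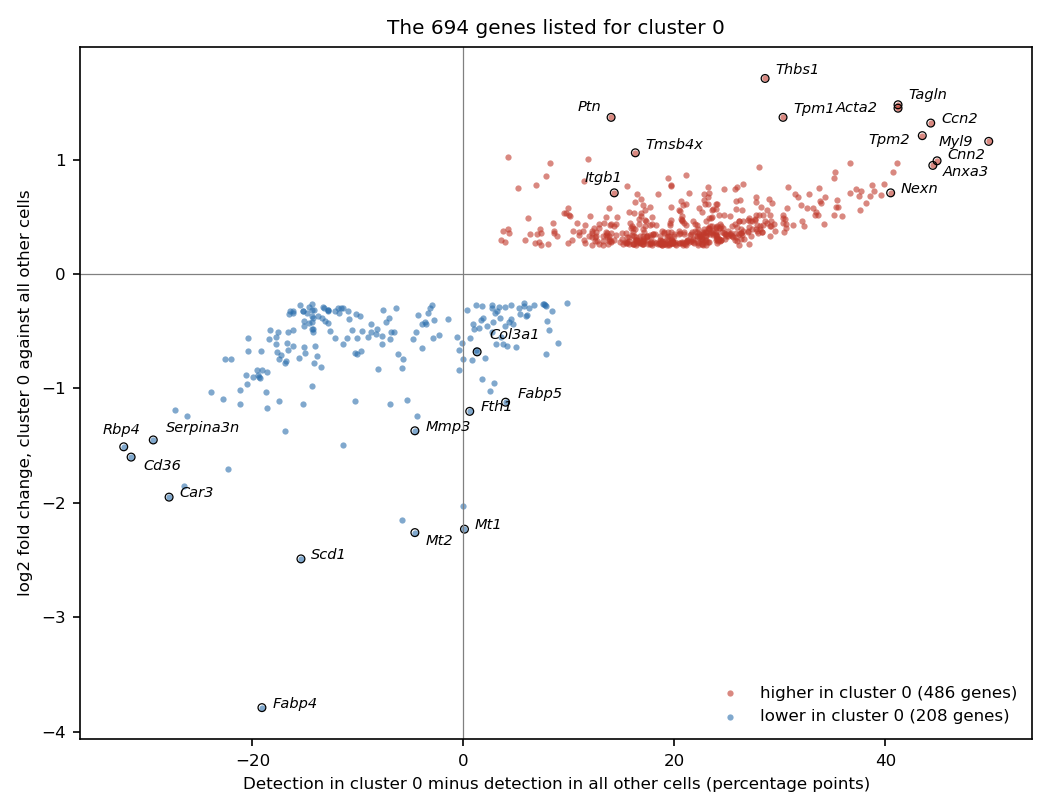
Each point is 1 of the 694 genes listed for cluster 0, with the difference in detection (percentage points) on the x axis and the log2 fold change on the y axis; red points are higher in cluster 0 and blue points lower. All 486 higher genes lie to the right of 0, Myl9 farthest at 49.8 points, while 59 of the 208 lower genes lie at or to the right of 0.

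The genes given as markers were all higher. Thbs1 (chr2:118111876-118127133) had the largest log2 fold change of all entries of cluster 0, 1.71, and was detected in 98.3% of its cells against 69.7% of all others. Tagln, which encodes the actin-binding protein transgelin (chr9:45929619-45936058), stood at 1.48 with detection in 97.7% against 56.5%. Itgb1, the beta 1 chain shared by many matrix-binding integrins (chr8:128685654-128733200), stood at 0.71 with 98.8% against 84.5%. Nearly all cells of the cluster held each of these genes, and Tagln differed most in detection from the other cells. All 3 had their largest log2 fold change in cluster 0, but each was also higher elsewhere: Tagln reached 1.38 and Itgb1 0.61 in cluster 5, where Thbs1 stood at 0.84.

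The word contractile in the working name rests on markers of this same cluster, so its match with these values is no check. The word preadipocyte matched the values only in part. The study marks preadipocytes by Mmp3, F3 and Itgb1. F3, the coagulation initiator tissue factor, was higher in cluster 0 at 0.70, but was higher still in cluster 1 at 1.17. Mmp3, a secreted metalloproteinase, was lower in cluster 0 at -1.37, against 2.26 in cluster 1 and 1.11 in cluster 3. Of 17 surface markers of adipose progenitors, 10 were in the table, and 2 had an entry for cluster 0, both higher (Thy1 at 0.59 and Cd9 at 0.42), while Pdgfra, Pdgfrb and Ly6a had none. Because Mmp3 went against the name, the cells are called cluster 0 here.

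Markers of other cell types gave few entries. None of the 8 immune, 7 endothelial and 6 glial markers had an entry in any cluster, and the study removed such cells before clustering. Of 10 markers of mural and smooth muscle cells, which also contain Acta2 and Tagln, 2 were in the table: Ndufa4l2 was lower in cluster 0 at -0.70, and Abcc9 had no entry there. Myh11, Rgs5, Des and the other 5 had no entry in any cluster. Of 7 mesothelial and epithelial markers, Krt19 alone was in the table, at 0.33 in cluster 0 and detected in 27.6% of its cells against 10.2% elsewhere.

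The genes of the contractile apparatus made up most of the top of the cluster. Of 32 contractile and stress fibre genes, all in the table, 28 were higher in cluster 0 and none was lower, which is 87.5% against 12.4% for all genes, with a median log2 fold change of 0.77 over the 28 against 0.37 over all higher genes. At a minimum of 0.5, 23 of them were still higher. For 21 of the 28 the log2 fold change was larger in cluster 0 than in any other cluster that lists the gene. The remaining 4 (Actg2, Myl12b, Mylk and Csrp2) had no entry for cluster 0.

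Smooth muscle alpha actin, Acta2 (chr19:34241090-34255590), stood at 1.45 and was detected in 97.0% of cluster 0 against 55.8% of other cells. The tropomyosins, which wrap actin filaments and govern the access of myosin, were all higher: Tpm1 at 1.37, Tpm2 at 1.21, Tpm4 at 0.77 and Tpm3 at 0.43. These values follow the order of how far each isoform departed from the other cells and say nothing of their absolute levels. Of the myosin genes, the light chain gene Myl9 stood at 1.16, detected in 89.0% against 39.2%, the largest gain in detection of any gene in the cluster. The light chains Myl6 and Myl12a each stood at 0.78, and the heavy chains of non-muscle myosin at 0.77 for Myh9 and 0.46 for Myh10. Caldesmon, Cald1, an inhibitor of actomyosin, was at 1.01, and alpha-actinin 1, Actn1, which crosslinks actin bundles, at 0.97. The smooth muscle calponin gene Cnn1 was found in 40.3% of cluster 0 and 14.6% of other cells at a log2 fold change of 0.74, and the actin nucleator gene Lmod1 in 42.8% and 13.5% at 0.62. Both were thus detected in a minority of the cluster, unlike Acta2 and Tagln, which nearly all of its cells held.

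The proteins that supply and turn over actin filaments followed. Of 17 genes of actin monomer binding and of the Arp2/3 complex in the table, 14 were higher and 1 was lower (82.4% higher). Tmsb4x (chrX:167207093-167209315), whose product thymosin beta 4 holds actin monomers in reserve, stood at 1.06, the filament-severing gene Dstn at 0.87 and the profilin gene Pfn1 at 0.81. Branched filaments were represented by Arpc2 at 0.70, Arpc5 at 0.54 and Actr3 at 0.51. The exception was gelsolin, Gsn, another severing and capping protein, at -1.02. It was detected in 88.1% of cluster 0 and 85.6% of other cells, so its lower value was one of level and not of presence. Gsn was higher in 4 other clusters, with the largest values in clusters 8 (2.09) and 11 (1.62).

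Stress fibres end at focal adhesions, where integrins grip the matrix. Of 21 integrin and focal adhesion genes in the table, 10 were higher and none was lower (47.6%). Vinculin, Vcl, was at 0.76, zyxin, Zyx, at 0.70 and talin, Tln1, at 0.67, followed by the integrin activator kindlin-2, Fermt2, at 0.61. Among integrin chains only Itgb1 and Itgb5 (0.28) had an entry for cluster 0. The 8 alpha chains in the table (Itga1, Itga2, Itga5, Itga6, Itga8, Itga9, Itga11 and Itgav) had none there, nor did the caveolar genes Cav1, Cav2 and Cavin1.

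**Figure D2:**
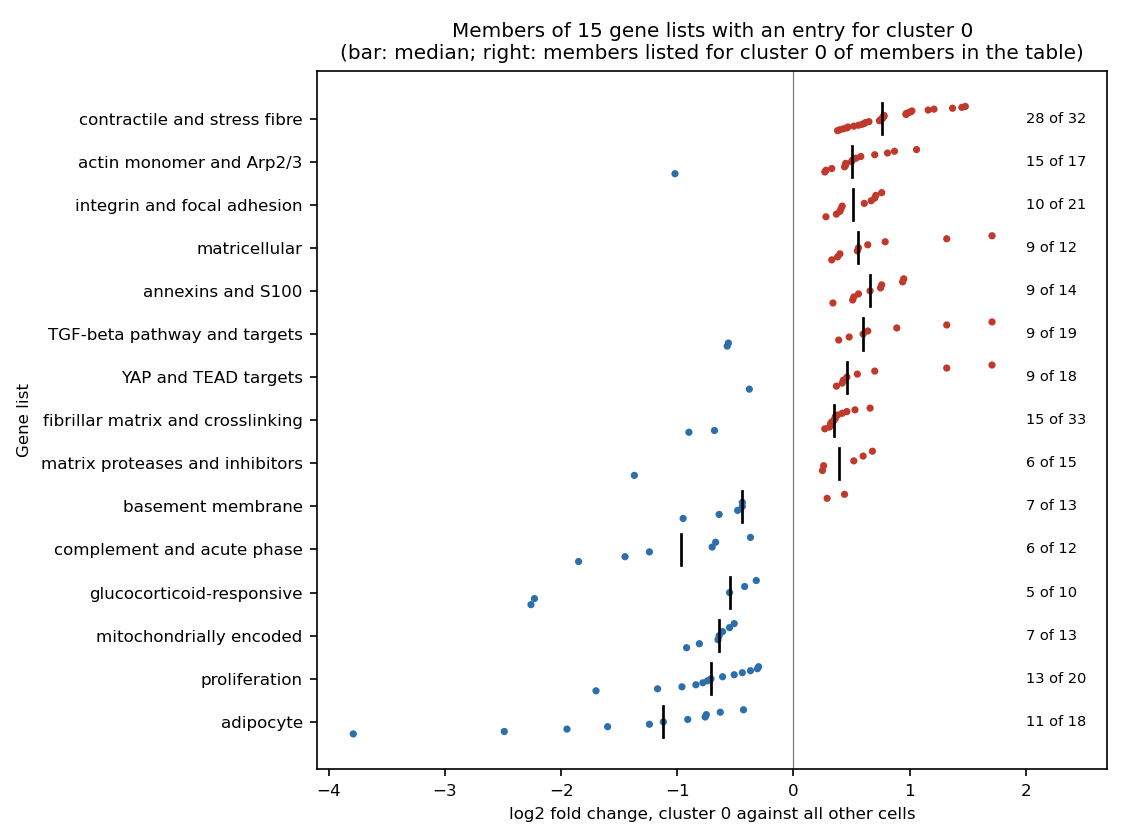
Points are the members of 15 gene lists that have an entry for cluster 0, placed by log2 fold change against all other cells; the bar is the median, and the figures at the right count the members listed for cluster 0 out of those in the table. The contractile list lies wholly above 0 with a median of 0.77, and the adipocyte and proliferation lists lie wholly below 0 with medians of -1.12 and -0.71.

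Secreted proteins that bind matrix and signal to cells were higher as well. Of 12 matricellular genes in the table, 9 were higher and none was lower (75.0%). Ccn2 (chr10:24595442-24598683), connective tissue growth factor, stood at 1.32 with detection in 86.0% against 41.7%. After it came Ccn4 at 0.79, Postn (periostin) at 0.64, Tnc (tenascin C) at 0.56 and Ccn1 at 0.55. Ccn2, Ccn4 and Tnc were largest in cluster 0, whereas Postn was larger in cluster 3 (0.78) and Ccn1 in cluster 7 (0.72).

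Of 19 genes of the TGF-beta pathway and its targets in the table, 7 were higher and 2 were lower (36.8% and 10.5%). Among the higher ones were ligand, matrix and target genes: Thbs1, Ccn2, Inhba (0.89), Postn, Pmepa1 (0.48) and Ltbp2 (0.39). Inhba (chr13:16011851-16031621) encodes the subunit of activin A and was detected in 78.1% of cluster 0 against 42.9%. The lower ones were receptors: Tgfbr2, the type 2 receptor, at -0.57 and Tgfbr3, the coreceptor betaglycan, at -0.56. The ligand genes Tgfb1, Tgfb2 and Tgfb3, the receptor gene Tgfbr1 and the feedback inhibitor gene Smad7 had no entry for cluster 0. Higher targets and lower receptors were therefore found in the same cluster, and both receptor genes were higher in cluster 2 (1.02 for Tgfbr2 and 0.95 for Tgfbr3). A mix was not particular to cluster 0: the list had 6 higher and 3 lower genes in cluster 5, 5 and 4 in cluster 9, and 6 and 2 in cluster 1.

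Of 18 YAP and TEAD target genes in the table, 8 were higher and 1, Dlc1 (-0.38), was lower (44.4% and 5.56%). Thbs1, Ccn1, Ccn2 and F3 belong to this list too. The others were Asap1 at 0.46, the receptor tyrosine kinase gene Axl at 0.43, Crim1 at 0.42 and Tead1, a gene of the DNA-binding TEAD family, at 0.37. The targets Ankrd1, Amotl1, Amotl2 and Lats2 had no entry for cluster 0. Of the AP-1 and immediate early genes, 2 of 15 in the table were higher, Klf2 at 0.47 and Jund at 0.34, and Fos, Jun, Junb and Egr1 had no entry there, so 13.3% of that list was called, close to the 12.4% over all genes.

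Structural matrix was mixed. Of 33 fibrillar matrix and crosslinking genes, 13 were higher and 2 lower (39.4% and 6.06%), with the largest value, 0.66, for the microfibril gene Mfap5. The chains of type I collagen were at 0.36 (Col1a1) and 0.35 (Col1a2), whereas Col3a1, for type III collagen, was at -0.68 although 99.7% of cluster 0 cells held it. Col5a3 was at -0.90. Type I and type III collagen, which are laid down together in many tissues, thus went opposite ways in the cluster. In cluster 1 both were higher, at 1.02 for Col1a1 and 1.01 for Col3a1.

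Basement membrane genes went mostly the other way, with 2 of 13 higher and 5 lower (15.4% and 38.5%). Fat cells surround themselves with this sheet of type IV collagen and laminin. Col4a1 stood at -0.95, Nid2 at -0.64, Col15a1 at -0.48, and Col4a2 and Lamb1 each at -0.44, while Col8a1 (0.44) and Hspg2 (0.29) were higher. Of the 5 lower genes 2 were left at a minimum of 0.5 and none with a deposited adjusted p-value below 0.05. Of 15 matrix proteases and inhibitors in the table, 5 were higher (33.3%, against 12.4% for all genes) and 1, Mmp3, was lower (6.67%, against 5.33%). Among the higher ones were the inhibitor genes Timp3 (0.68) and Timp2 (0.52).

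Calcium-dependent membrane and cytoskeletal proteins were higher: 9 of 14 annexin and S100 genes in the table, with none lower (64.3%). Anxa3 was at 0.95 with detection in 90.0% against 45.5%, S100a4 at 0.94, Anxa1 at 0.76 and S100a6 at 0.75. S100a4 was higher still in clusters 9 (1.38) and 10 (1.43). Of secreted growth factors, Ptn (chr6:36714929-36810220), for the heparin-binding pleiotrophin, was at 1.37 although 18.8% of cluster 0 cells held it, against 4.8% elsewhere. It had an entry in no other cluster. With cluster 0 holding 14.3% of all cells, as solved from the detection percentages, 39.6% of all cells in which Ptn was detected lay in it, the highest such share among the higher genes. For Thbs1 the share was 19.1% and for Tagln 22.4%. Csf1, the macrophage growth factor, was at 0.84 and was the 1 gene of 12 chemokines and cytokines in the table with an entry for cluster 0. That is 8.33% of them, against 12.4% of all genes called higher.

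The lower genes were led by those of the fat cell. Of 18 adipocyte genes, all in the table, 11 were lower and none was higher (61.1% against 5.33% for all genes), with a median of -1.12. Fabp4 (chr3:10204088-10208576), the fatty acid carrier of adipocytes, was at -3.79, the smallest value of the cluster, yet 57.3% of cluster 0 cells held a transcript against 76.4% of others. Scd1, which desaturates stearate, was at -2.49, the fatty acid transporter Cd36 at -1.60 and lipoprotein lipase, Lpl, at -1.24. The carbonic anhydrase gene Car3, at -1.95, was nearly absent, with detection in 1.6% of cluster 0 against 29.5%, and Cd36 in 2.5% against 34.0%. The lipid droplet gene Plin2 (-0.75) and Fabp5 (-1.12) were detected in slightly more cells of cluster 0 than elsewhere, so the adipocyte genes divided into those nearly missing from the cluster and those present at a lower level. The regulators Pparg and Cebpa had no entry for cluster 0. Of 11 thermogenic genes, 5 were in the table, and Cox7a1, at -0.31, was the 1 with an entry for cluster 0.

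Lower values were not confined to fat cell genes. All 5 of the glucocorticoid-responsive genes with an entry (of 10 in the table) were lower, with the metal-binding metallothionein genes at -2.26 (Mt2) and -2.23 (Mt1) and the FK506-binding protein gene Fkbp5 at -0.42. Mt1 was detected in 97.8% of cluster 0 and 97.7% of other cells. Of 12 complement and acute phase genes in the table, 6 were lower and none was higher, led by Saa3 at -1.85, the protease inhibitor gene Serpina3n at -1.45 and A2m at -1.24. This too was shared: 5 of the 12 were lower in cluster 5, 7 in cluster 9 and 7 in cluster 10, with none higher. Cluster 1 had 5 higher and 5 lower, and clusters 2, 3 and 7 had more higher than lower. Col5a3 and Serpina3n are also the study's markers of differentiating cells, and both were lower. Igfbp4, which binds insulin-like growth factors, was at -1.49, whereas its relatives Igfbp6 and Igfbp7 were higher at 0.68 and 0.34.

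Mitochondrially encoded genes were lower in 7 of 13 cases (53.8% against 5.33% for all genes), from -0.92 for mt-Nd2 to -0.51 for mt-Nd4. All 7 encode subunits of complex I or, in mt-Atp8 (-0.65), of the ATP synthase. The overlapping transcripts Gm42418 (-2.03) and AY036118 (-2.15), which lie on opposite strands at chr17:39846958-39848788 and chr17:39847113-39848035 in the ribosomal RNA region, were also among the lowest, and the counting of overlapping genes is uncertain. With a deposited adjusted p-value below 0.05, none of the 7 was left. More of the 13 mitochondrially encoded genes were lower in other clusters: 11 in cluster 1, 8 in cluster 5 and 9 in cluster 9, with none higher. Cells with over 10% mitochondrial reads had been removed, and the authors regressed the mitochondrial share out of the scaled data used for clustering. Of 76 genes matched as cytosolic ribosomal proteins, 1 was higher and 2 were lower (1.32% and 2.63%). The higher one, Rps27l (0.38), is a paralog and not a core ribosomal gene.

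Cluster 0 was not a dividing population by its markers. Of 20 proliferation genes, all in the table, 13 were lower and none was higher (65.0%), among them the topoisomerase gene Top2a at -1.17 and Mki67, whose product marks cycling cells, at -0.96. The linker histone gene Hist1h1b, expressed in S phase, was at -1.70, with detection in 14.4% of cluster 0 against 36.7% of other cells. Neither Hmgn1 nor Hmgn2, the genes deleted in DKO mice, had an entry for cluster 0. Of the other high mobility group genes, Hmga2 was at 0.32 and Hmgb2, which follows the cell cycle, at -1.11.

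**Figure D3:**
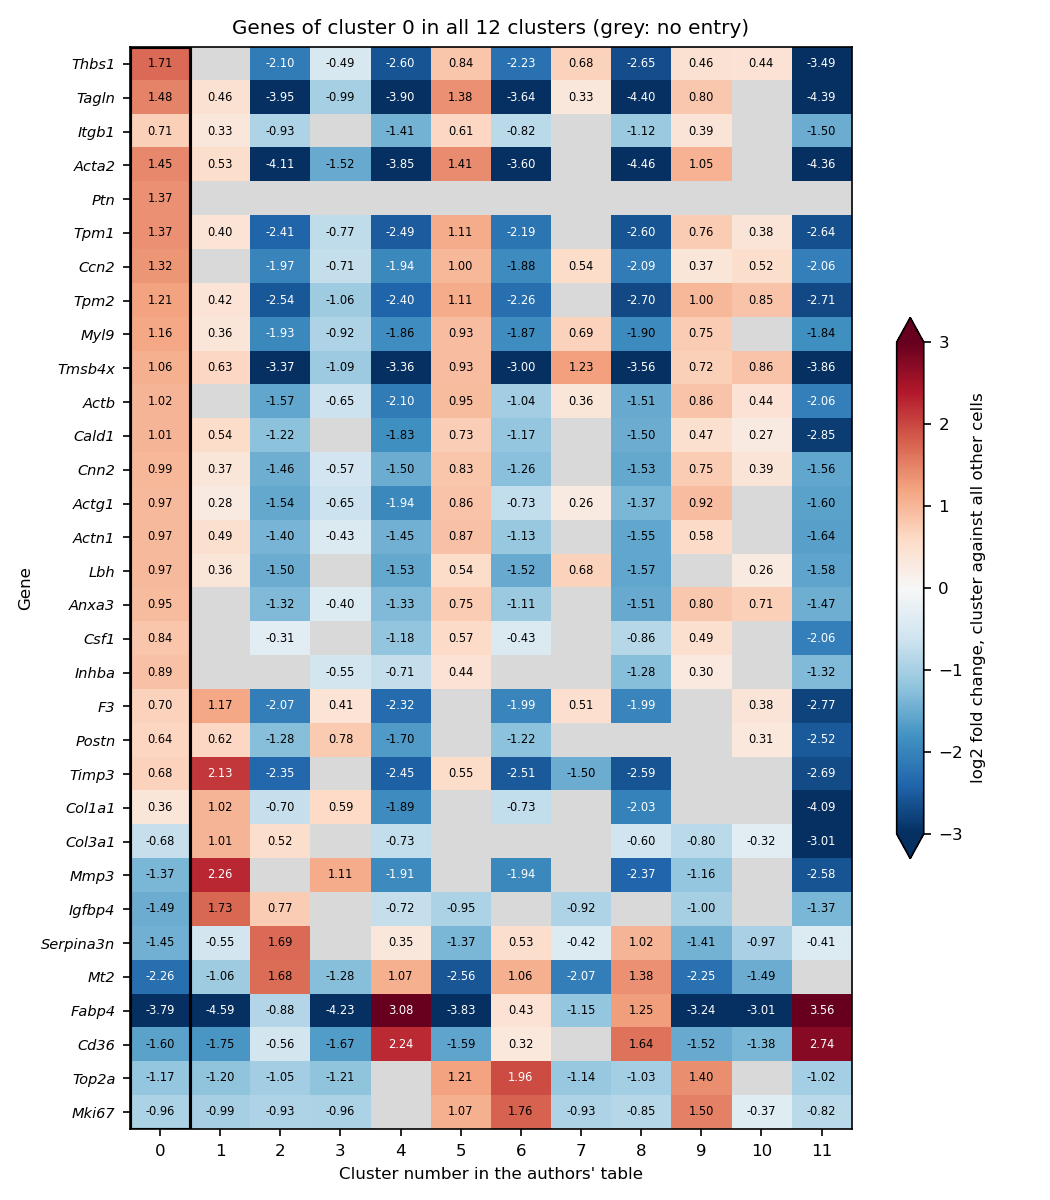
Log2 fold changes of 32 genes (rows) in each of the 12 clusters (columns) against all other cells, with grey where the table has no entry and the colours capped at 3 in either direction. Contractile genes are red in clusters 0, 1, 5 and 9 and blue in clusters 2, 4, 6, 8 and 11, while Mmp3, Col3a1 and Igfbp4 are blue in cluster 0 and red in cluster 1. Of the full contractile list, 14 genes were higher in cluster 10 and 9 in cluster 7, with none lower. The shares over all genes were not taken for these clusters.

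The same contractile genes set out the other clusters. Of the 32, 28 were higher in cluster 5 (19.7% of all genes were higher there) and none was lower. Cluster 9 had 25 higher (18.7%), and cluster 1 had 21 (11.5%), again with none lower. Fewer were higher in cluster 10 (14) and cluster 7 (9), also with none lower, and cluster 3 had 1 higher and 14 lower. The shares over all genes were not taken for clusters 10, 7 and 3, so whether these counts exceed them cannot be said. A second set of clusters held no higher contractile gene: all 32 were lower in cluster 4 (39.1% of all genes were lower there) and 31 in cluster 11 (38.1%). The lower genes numbered 28 in both cluster 2 (19.9%) and cluster 8 (19.4%), and cluster 6 had 27 (18.2%). In clusters 4 and 11 all 18 adipocyte genes were higher (13.9% and 25.6% of all genes were higher in these clusters), and Tagln stood lowest in cluster 8, at -4.40. These comparisons share cells, since each cluster is set against all the rest.

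To set cluster 0 directly beside the clusters nearest to it in contractile genes, each fold change was turned into a level relative to all cells, as the log2 of the mean plus 1 over the same quantity in all cells. The difference of 2 clusters then no longer depends on which cells were left in the comparison. It can be formed only where both clusters list the gene, so genes below the limit in either cluster are left out. The difference has no error. With cluster 5, contractile levels were close: of 26 contractile genes listed in both, 25 differed by less than 0.25 and the median difference was 0.03. Acta2 differed by -0.09 and Tagln by -0.04, and the exception was Tagln2, a transgelin gene at -0.38. Each of the 26 had already passed the limit as higher in both clusters, so near agreement was partly built in. Over all 464 genes listed in both, 16 were higher in cluster 0 by at least 0.25 and 56 were lower. The rest lay within 0.25 and the median difference was 0.02, so closeness was not particular to the contractile genes. Thbs1 was 0.56 higher in cluster 0 than in cluster 5, Vcl 0.35 higher and Inhba 0.33 higher. The proliferation genes set clusters 0 and 5 apart. Of 20 in the table, 13 were lower in cluster 0 and 17 were higher in cluster 5, with none the other way. The 12 listed in both were therefore bound to be lower in cluster 0, and their median difference was -1.40. Hist1h1b differed by -3.07 and Top2a by -2.10.

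Cluster 9 resembled cluster 5 in being rich in proliferation genes, with 14 of 20 higher and 1 lower. The median difference was -1.93 over the 12 listed in both, and its direction was again largely fixed by the limit. Over all 406 genes listed in both, 25 were higher in cluster 0, 61 were lower and 320 lay within 0.25. Of 24 contractile genes listed in both, 6 were higher in cluster 0 by at least 0.25, up to 0.41 for Tagln, 2 were lower (Lmna at -0.50 and Tagln2 at -0.33) and 16 lay within 0.25. The matricellular and TGF-beta target genes stood out more: Thbs1 was 0.87 higher in cluster 0 and Ccn2 0.69 higher. The mitosis gene Ube2c differed by -2.76.

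Of 322 genes listed in both cluster 0 and cluster 1, 240 lay within 0.25, 40 were higher in cluster 0 and 42 lower. The 11 proliferation genes listed in both all lay within 0.25 of each other. Each had already passed the limit as lower in both clusters, so near agreement was partly built in. The contractile genes were lower in cluster 1: 15 of 18 listed in both were higher in cluster 0, by up to 0.76 for Tagln and with a median of 0.38. The fibrillar matrix went the other way: of 11 genes listed in both, 6 were lower in cluster 0 and none was higher. Col3a1 differed by -1.42, Mmp3 by -2.89, Igfbp4 by -2.68 and the complement inhibitor gene Serping1 by -1.74. Tnc and Thbs2, by contrast, were each 0.87 higher in cluster 0. Of the lists these genes belong to, 4 of 6 complement and acute phase genes and 3 of 6 matrix proteases and inhibitors listed in both were lower in cluster 0 and none was higher, while of 6 matricellular genes 2 were higher and 1 was lower.

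**Figure D4:**
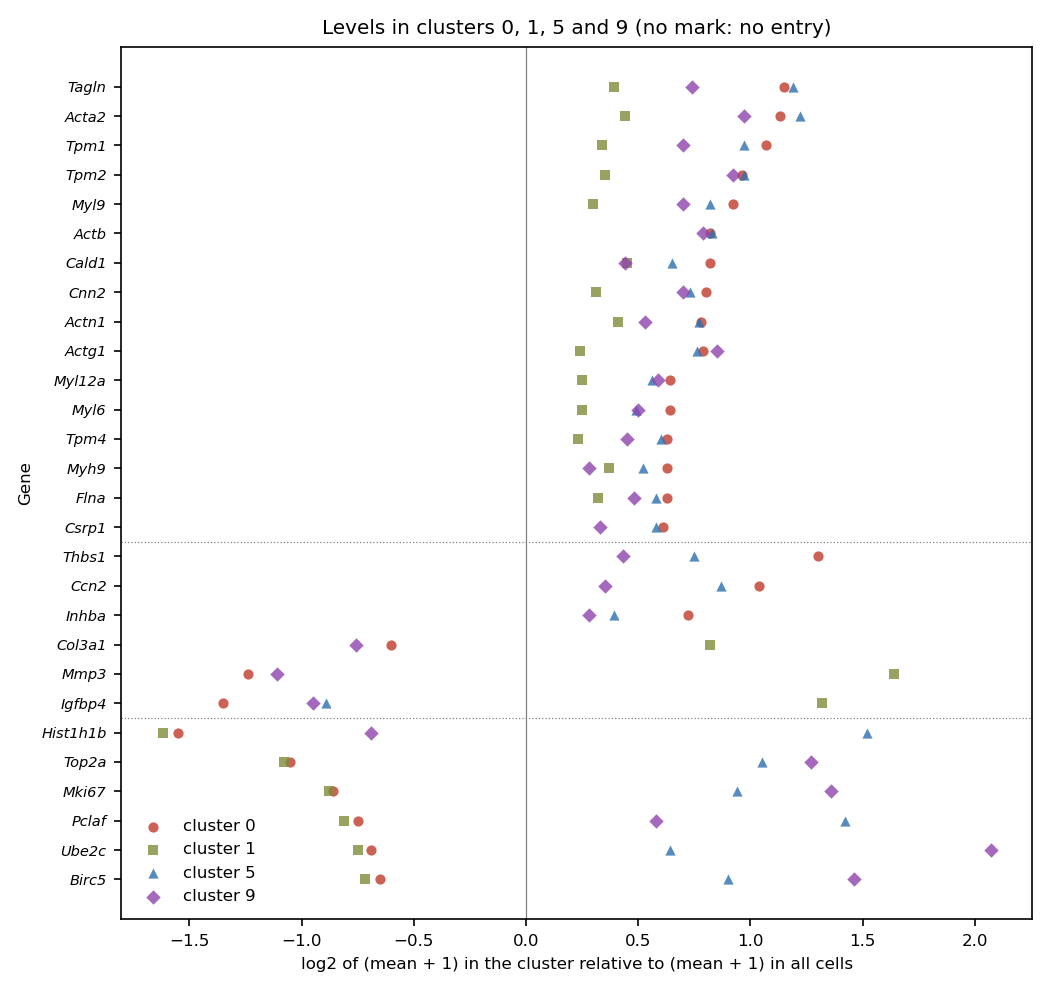
Levels of 28 genes (rows) in clusters 0, 1, 5 and 9, as the log2 of the mean plus 1 in the cluster relative to all cells; dotted lines part the contractile genes (top), secreted and matrix genes (middle) and proliferation genes (bottom), and a missing mark is a missing entry. Cluster 0 lies near cluster 5 for the contractile genes and near cluster 1 for the proliferation genes, where both are below 0.

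Among the 486 higher genes, 230 (47.3%) had their largest log2 fold change in cluster 0, and 63 were listed as higher in no other cluster. The fold changes compared here rest on different comparison cells for each cluster. After Ptn, the largest of the 63 were Meg3, a long noncoding RNA of an imprinted region (0.71), the transcriptional coregulator gene Cited2 (0.67), and Filip1l (0.47). The focal adhesion gene Tes (0.46), the filamin gene Flnc (0.40), Tead1 (0.37) and its cofactor gene Vgll3 (0.33) were among them as well. These values were modest, and genes with larger ones, such as Thbs1 and Tagln, were also higher in other clusters. On the lower side, 31 of 208 genes had their smallest value in cluster 0 and 2 were listed as lower there alone.

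The genes whose log2 fold changes over the clusters were most like those of Thbs1, listed for 11 clusters, were Wwc2 (Pearson r = 0.994 over 7 clusters), Zyx (0.994 over 6), Lrrc32 (0.993 over 9), Fyn (0.993 over 6) and Bin1 (0.993 over 6). Lrrc32 encodes GARP, a surface protein that holds latent TGF-beta, and Fyn a kinase of the Src family. All 5 were higher in cluster 0, at 0.39, 0.70, 0.64, 0.36 and 0.36 in that order. The points share their comparison cells and are few, and the coefficients describe the table only.

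A CArG box, 2 C bases and 2 G bases around 6 bases that are A or T, was found in 4 of the 32 RefSeq promoters of contractile genes higher in cluster 0 (12.5%), those of Actg1, Cnn2, Myl6 and Myl9. That of Myl6 belongs to a second start inside the annotated gene. The promoters covered 250 bases before and 50 after each start, for 25 of the 28 genes, and the box reads the same on both strands. Over all 32851 promoters in the reference, 535 (1.63%) held one, against 22 of 510 (4.31%) for all higher genes of cluster 0 and 3 of 187 (1.60%) for the lower genes. Outside the contractile list, the matches included those of Vcl, Fermt2, Fhl2, Filip1l and Meg3. The TEAD core GGAATG, searched on both strands, was in 34.4% of the contractile promoters, 17.5% of those of all higher genes and 14.7% of all promoters. The AP-1 site TGANTCA was in 12.5%, 6.86% and 7.81%. A shared promoter letter pattern shows neither binding nor use, and the promoters of Tagln and Actb were among those not searched.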

How the data were processed

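Cells were captured with 10x 3′ chemistry from 8 samples in 4 groups of 2, grouped by their labels. Per the study's methods and the labels, the authors mapped reads to mm10 with Cell Ranger 6.0.0, equalized read depth when aggregating, kept cells with at least 500 genes and at most 10% mitochondrial reads, log-normalized them in Seurat, regressed out the mitochondrial share when scaling, took out endothelial, glial and immune cells, and clustered at a resolution of 0.6. Doublet removal is not described and doublets were not looked for. Cluster numbers are those of the table, which runs from 0 to 11.

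Each cluster was compared by the authors with all other cells (MAST, detection of at least 0.1 in either group and a log fold change of at least 0.25). The deposited log2 fold changes, the deposited detection fractions (printed as percents) and the deposited p-values all pool the cells of the 8 samples. The p-values treat cells as replicates, were used only to select entries in an alternative, and are not printed. There were 0 columns of values per sample left unused. With no replicates, no test was run. The depth reached is not in the table, so no counting interval could be given.

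Python 3.11.15 with numpy 2.4.6, pandas 2.3.3 and matplotlib 3.10.9 was used. A spreadsheet had turned gene symbols of 35 entries into dates, and these were restored from row names where detection over all cells matched within 0.2 percentage points. The share of each cluster was solved by least squares from the detection fractions of 2692 genes listed in at least 2 clusters, since share-weighted detection must be equal from each. For the 687 genes of cluster 0 listed in at least 2 clusters it was equal within 0.097 percentage points. The procedure was tested on simulated data. Levels relative to all cells used the pseudocount of 1 that Seurat adds, and over the 10 genes listed in every cluster the share-weighted levels, taken without the log, summed to 1. Gene positions are from GENCODE M21 on the same build, and promoters from RefSeq.

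Named genes were the 15 largest and 10 smallest log2 fold changes, the 10 largest and 5 smallest differences of detection, the given markers, the members of 37 gene lists and the 5 genes most like Thbs1 over at least 6 clusters. Members, lists and this rule were chosen with earlier results of these data known, and genes named outside the rule were chosen after their values were seen. Some genes are not reported here. The alternatives tried were stricter minimums of fold change and detection, the deposited adjusted p-value, other genes for the shares and a shorter promoter.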

Additional observations from a re-analysis of the deposited data

How the results depend on the processing

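The counts of genes depended on the minimum. At a log2 fold change of 0.5, 128 genes were higher and 112 lower, 78 had their largest value in cluster 0, 31 were higher there alone, and 110 of the 183 list members with an entry were left. At a minimum of 1 these counts were 11, 32, 10 and 6 genes. With a deposited adjusted p-value below 0.05, 213 were higher, 38 lower, 134 largest in cluster 0, 57 higher there alone and 93 list members left. Each limit was applied to the entries of every cluster before counting. A gene could thus become higher in cluster 0 alone when its entries elsewhere dropped out. The 31, 6 and 57 genes are therefore recounts and not what was left of the 63. A detection of at least 25% in cluster 0 or in the others, or detection moving the same way as the fold change, left each of these counts within 1.5 times its value. The share of cells in cluster 0 was 14.33% or 14.34% from any set of genes. The CArG count stayed at 4 with 250 bases before the start alone. Of 18 counts of list members in a direction, 8 moved by over 1.5 times at a minimum of 0.5 and 12 with the adjusted p-value. The latter left 5 of 13 lower proliferation genes, 3 of 6 complement genes, 3 of 5 glucocorticoid-responsive genes, none of the lower mitochondrially encoded and basement membrane genes or of the study's lower brown and non-adipogenic genes, 1 of 3 histones, and, among higher genes, 9 of 14 actin monomer and Arp2/3 genes, 6 of 13 fibrillar matrix genes, 5 of 8 YAP and TEAD targets, 3 of 5 proteases and inhibitors and 1 of 4 chaperones. No paired analysis was possible because values per sample are not in the table, and no sample could be left out for the same reason. Overlaps with the lists of other clusters were not run, since the comparisons share cells. The missing depth limits any statement on genes without an entry.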

Other observations

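The families of synthetase, amino acid and imprinted genes described here were picked after the values of cluster 0 had been seen and were not tested. Genes that charge transfer RNAs with amino acids were higher: of 13 cytosolic aminoacyl-tRNA synthetases in the table, 8 (61.5%) were higher in cluster 0 and none was lower, from 0.34 for Aars and Tars to 0.70 for Nars, against 12.4% higher over all genes. They were not particular to cluster 0: 10 were higher in cluster 5 and 7 in cluster 9, and all 8 lay within 0.25 of their level in cluster 5. Of 6 genes of serine, asparagine and one-carbon synthesis in the table, 5 were higher (83.3%, against 12.4% for all genes). They were Phgdh, the first enzyme of serine synthesis, at 0.62, the asparagine synthetase gene Asns at 0.60, Psph at 0.58, Mthfd2 at 0.44 and Psat1 at 0.39. All 6 were higher in clusters 5 and 9, and of the 5 listed in both cluster 0 and cluster 5, 2 were lower in cluster 0 by at least 0.25 and none was higher, with a median difference of -0.24. Of the stress regulators that act on such genes, Atf5 was at 0.42, and Atf4, Ddit3 and Trib3 had no entry for cluster 0.

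Of 11 imprinted genes, Meg3 (0.71), Gnas (0.39) and Rian (0.35) were higher and Peg3 was lower at -0.68. That is 27.3% higher and 9.09% lower, against 12.4% and 5.33% for all genes. Meg3 and Rian lie near each other on the plus strand, at chr12:109541001-109571726 and chr12:109603940-109661716, and both were listed as higher in cluster 0 alone.

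The remaining gene lists had these entries for cluster 0, out of their members in the table and against 17.8% of all genes in the table: 2 of 6 small leucine-rich proteoglycans, 2 of 15 glycolysis genes (both lower), 4 of 16 antioxidant genes (2 higher and 2 lower), 4 of 12 endoplasmic reticulum chaperones (all higher), 1 of 11 translation factors, 1 of 7 cholesterol synthesis genes, 3 of 14 replication histones (all lower), and 5 of 6 brown and non-adipogenic genes of the study (2 higher and 3 lower).

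Ctla2a, which encodes a protease inhibitor, was lower in cluster 0 at -0.74 with the same detection, 66.2%, inside and outside. It was nevertheless higher in cluster 0 than in each of the clusters set beside it, by 1.41 against cluster 1, 0.93 against cluster 9 and 0.63 against cluster 5, the largest such difference in each of the 3 comparisons.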
